A study of Mus musculus with 18 samples.

Results

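Neurotrophic factor receptors are described here by 8 genes, matched by symbol to the rows of 1 deposited table of 17198 genes. They are the neurotrophin receptors Ntrk2, Ntrk3 and Ngfr, the sorting receptor Sort1, and the receptors of the glial cell line-derived neurotrophic factor (GDNF) family, Ret, Gfra1, Gfra2 and Gfra3. All 8 were found, and all 8 were tested, since the filter on low values (a mean normalized count of at least 1) removed 0 genes.

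The table holds RNA sequencing of DRG neurons in culture, that is, neurons of the mouse dorsal root ganglion, which carry touch, pain and body position to the spinal cord. The wild-type (WT) groups are cultures of Wild type mice after 12, 24 or 48 h, and the heterozygous (HET) groups are cultures of Dynlrb1(tm1a/+) mice, with 1 tm1a allele and 1 wild-type allele, after the same times. Each of the 6 groups had 3 biological replicates, 18 samples in all; their numbers are 1, 2 and 5 at the earlier times and 1, 2 and 3 at 48 h. The design asks how the genotypes differ at each time, and the series places Dynlrb1 in dynein transport and neuronal survival. No animal age, strain or culture medium is given in the sources used here, nor whether neurons of several animals were pooled, so the p-values measure the spread between these cultures. A tm1a allele is a gene-trap allele carried by the whole animal, so the glia of the ganglion carry it too.

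Neurotrophins and GDNF-family ligands keep sensory neurons alive and set which sensory subtype a neuron becomes. Trk receptors and Ret are tyrosine kinases: the Trks bind neurotrophins directly, while Ret is reached through GFR alpha co-receptors that are anchored in the membrane and pick the ligand. After binding at the axon tip, ligand and receptor are taken up into signalling endosomes, which cytoplasmic dynein carries along microtubules to the cell body; Dynlrb1 encodes a light chain of that motor.

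The values of Ntrk2 and Ntrk3 are sums over transcript forms, which is why their forms are shown. Both genes make a receptor with the tyrosine kinase and shorter forms that part from it after the membrane-spanning segment and lack the kinase. In GENCODE M21, the annotation of the GRCm38 build, 5 of the complete coding transcripts of Ntrk2 encode fewer than 700 codons and 2 encode more, against 1 and 3 for Ntrk3. The lines below give the coding sequence, 5′ to 3′, around the point where the longest RNA of each class, untranslated ends included, parts from the other (Ntrk3 also has a coding form of 864 codons, which is not shown); the 30 bases in lower case are shared and the 30 in capitals are not.
Ntrk2-202, 476 codons: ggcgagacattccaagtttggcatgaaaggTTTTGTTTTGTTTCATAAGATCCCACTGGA
Ntrk2-201, 821 codons: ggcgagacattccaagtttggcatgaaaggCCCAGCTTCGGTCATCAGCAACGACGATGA
Ntrk3-202, 612 codons: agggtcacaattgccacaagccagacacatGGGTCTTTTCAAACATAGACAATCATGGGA
Ntrk3-201, 825 codons: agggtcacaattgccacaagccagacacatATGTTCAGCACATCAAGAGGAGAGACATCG
The Ntrk2 pair shares 464 whole codons and the Ntrk3 pair 528. After the split, 12 codons (stop included) remain in the short Ntrk2 form and 84 in the short Ntrk3 form. The deposited table has 1 row per gene, so a change in the ratio of forms is not visible in it.

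The promoters that follow are those of a gene that fell with time in culture (Ngfr) and of one that passed in 0 comparisons of the limma fit described below (Ntrk2). Of the 8 genes, 3 have an entry in the RefSeq promoter table of the GRCm38.p6 build. The stretches run 5′ to 3′ on the gene's strand and stop before the first annotated exon, and capitals mark GC boxes, the letters GGGCGG on either strand.
Ngfr, minus strand, chr11:95587736-95587948: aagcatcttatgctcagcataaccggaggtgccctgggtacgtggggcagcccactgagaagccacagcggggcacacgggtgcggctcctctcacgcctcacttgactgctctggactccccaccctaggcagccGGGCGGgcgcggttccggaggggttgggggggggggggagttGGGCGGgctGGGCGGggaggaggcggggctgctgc
Ntrk2, plus strand, chr13:58806319-58806568: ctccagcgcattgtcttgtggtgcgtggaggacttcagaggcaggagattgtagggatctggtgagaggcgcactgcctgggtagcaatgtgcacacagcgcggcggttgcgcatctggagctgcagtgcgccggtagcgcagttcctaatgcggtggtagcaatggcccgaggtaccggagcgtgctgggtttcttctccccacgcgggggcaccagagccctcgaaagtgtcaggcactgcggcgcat
The Ngfr stretch of 213 bases holds 3 GC boxes and is 70.9% G or C, and the Ntrk2 stretch of 250 bases holds 0 and is 62.8% G or C. Gfra1, the third gene with an entry, is not shown. It also fell with time in culture, and holds 0 GC boxes in the 250 bases before the start. In the table, 32.7% of 32851 promoters hold a GC box in those bases. These letters are a description of the 2 windows and were not set against the expression values.

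Values are the authors' normalized counts unless FPKM (fragments scaled by gene length and by library total), which is used to compare genes, is named. Fold changes are differences of log2(normalized count + 1), tested with limma over all 17198 genes with Benjamini-Hochberg adjustment within each comparison, and called at an adjusted p under 0.05. Column totals were between 41509705 and 41509874 in every sample because of the scaling, so sequencing depth is unknown. Within a group, pairs of samples had a correlation over all genes of r 0.978 to 0.992. For the targeted gene Dynlrb1 all HET values lay below all WT values of the same time, at 0.582-fold (12 h), 0.550-fold (24 h) and 0.557-fold (48 h). The limma fit called it at 24 h (adjusted p 0.0390) but not at 12 h (0.0655) or 48 h (0.0501). The authors' edgeR false discovery rates for it were 1.48e-04, 1.25e-05 and 1.12e-05 at the successive times. A receptor not called between genotypes at 1 time is thus not shown to be unchanged. 1 library stands apart. Samples were placed along the line from the WT mean at 12 h (0) to the WT mean at 48 h (1). HET replicate 3 at 48 h lies at 0.273, against 0.761 and 0.628 for HET replicates 1 and 2. WT at 48 h runs from 0.807 to 1.157. For the receptor genes, the log2 differences between genotypes at 48 h and changes from 12 to 48 h in HET are also given without HET replicate 3. The marker, ligand and signalling genes in HET at 48 h are given with it only. Their HET values, and their contrasts with WT, may thus rest in part on this library. All 11 sensory neuron markers were measured in every group, with a summed FPKM from 6162 to 8900, so the cell type named by the labels is present. Markers of other cells were present too: Schwann cell markers summed to between 473.5 and 688 FPKM and satellite glia markers to between 255.1 and 763.9.

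**Figure D1:**
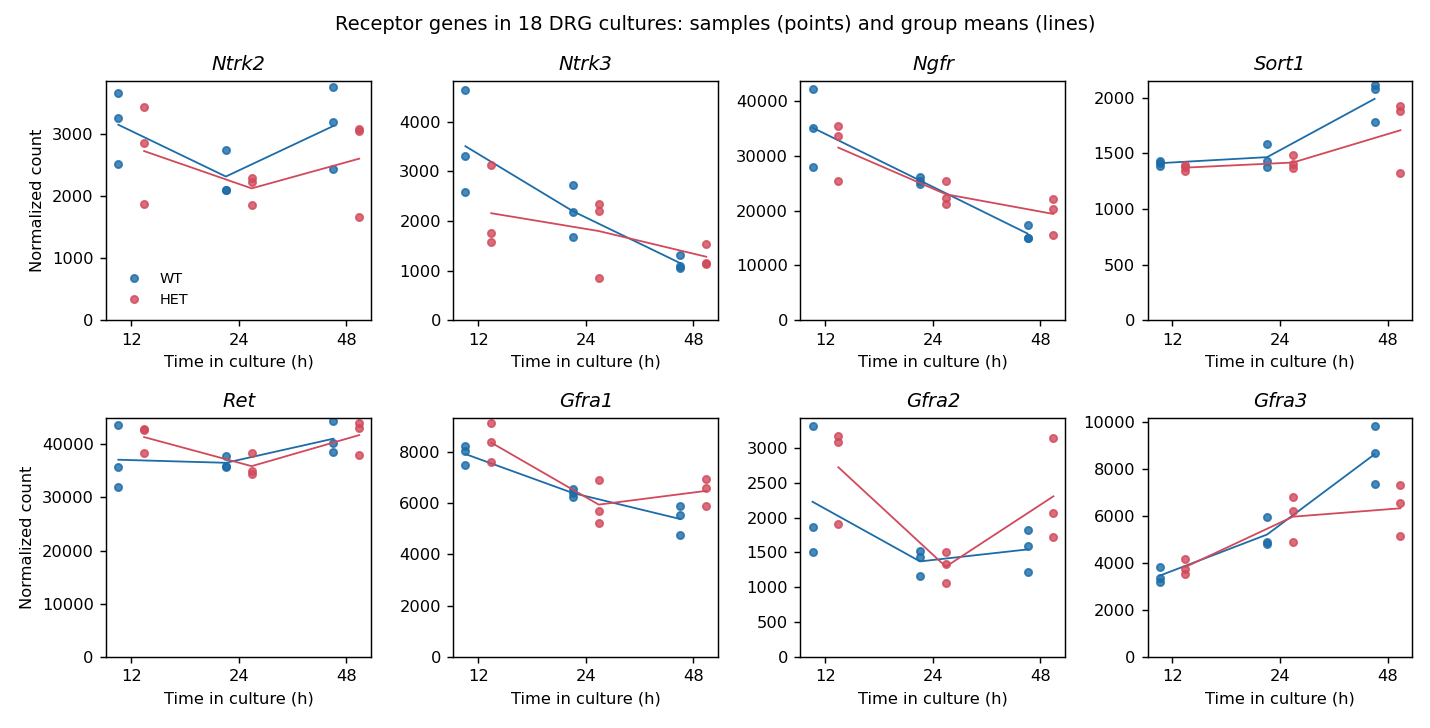
Normalized counts (vertical axis, from 0) of the 8 receptor genes at 12, 24 and 48 h (horizontal axis, the times spaced evenly); points are single cultures, lines join group means, WT in blue and HET in red, 3 cultures per group. Ntrk3, Ngfr and Gfra1 lie lower at 48 h than at 12 h, Gfra3 lies higher, and Ret stays between 31944 and 44369.

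Per length, Ngfr and Ret were the most abundant of the receptors, with a mean over the 18 samples of 177 and 155 FPKM. Gfra3 followed at 67.2 FPKM, Gfra1 at 34.8, Ntrk3 at 16.3, Gfra2 at 13.3, Ntrk2 at 7.41 and Sort1 at 5.43. Ngfr had a higher mean FPKM than 98.4% of the genes of the table and Sort1 than 49.3%. The order was not the same in every group. In WT at 12 h Ngfr (249 ± 50.5 FPKM, SD, n = 3) lay above Ret (147 ± 23.7 FPKM, SD, n = 3) with no overlap of samples, while at 48 h Ret (163 ± 11.9 FPKM, SD, n = 3) lay above Ngfr (112 ± 9.74 FPKM, SD, n = 3), again with no overlap. In HET at 48 h the samples of Ret and Ngfr overlapped. Gfra3 and Gfra1 were neighbours whose samples overlapped at 12 h in both genotypes and were apart at 24 and 48 h, with Gfra3 the higher. At the low end in WT at 48 h, the neighbours Gfra2 and Ntrk3, Ntrk3 and Ntrk2, and Ntrk2 and Sort1 overlapped.

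From 12 to 48 h in WT cultures, 5 of the 8 receptor genes changed, Sort1 and Gfra3 upward and Ntrk3, Ngfr and Gfra1 downward, where 47.1% of all genes passed. By direction, 2 rose where 30% of all genes did, and 3 fell where 17.1% did. The median log2 fold change of the 8 was -0.24, beside 0.11 over all genes. In HET cultures 3 of 8 changed over the same span, Gfra3 upward and Ngfr and Gfra1 downward, beside 14.2% of all genes (10.6% higher and 3.62% lower), with a median of -0.16 beside 0.10. The count in WT is thus near what the background share gives for 8 genes. Without HET replicate 3 at 48 h the HET changes were 0.22 for Ntrk2, -0.64 for Ntrk3, -0.81 for Ngfr, 0.47 for Sort1, 0.08 for Ret, -0.42 for Gfra1, -0.06 for Gfra2 and 0.86 for Gfra3. In bulk RNA fewer cells of a type and less RNA per cell cannot be told apart. In HET the count fell to 0 without HET replicate 2 at 12 h, without HET replicate 1 at 48 h or without HET replicate 2 at 48 h, and was 4 without HET replicate 3 at 48 h, when Sort1 passed too.

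Between genotypes, 0 of 8 receptor genes passed at any time in the limma fit without replicate numbers. At 12 h 0.00581% of all genes passed, 1 receptor gene (Ntrk3) had an unadjusted p under 0.05, as had 8.41% of all genes, and the lowest limma adjusted p of a receptor was 0.585. At 24 h 0.00581% of all genes passed, and for the receptors the unadjusted p was under 0.05 in 0 cases, beside 1.15% of all genes. At 48 h 0% passed, so the targeted Dynlrb1 was not called either (limma adjusted p 0.0501). There 2 receptor genes (Gfra3 and Gfra1) had an unadjusted p under 0.05, a share near the 22% of all genes. The lowest limma adjusted p of a receptor was 0.0936. Without HET replicate 3 at 48 h, the 48 h differences of HET against WT were -0.0058 for Ntrk2, 0.21 for Ntrk3, 0.18 for Ngfr, -0.06 for Sort1, 0.09 for Ret, 0.22 for Gfra1, 0.74 for Gfra2 and -0.31 for Gfra3, and limma again called 0 of 8. Averaged over the times, 0.0174% of all genes passed (0.0116% higher and 0.00581% lower), and the number of receptor genes below an unadjusted p of 0.05 was 0, beside 13.5% of all genes. The authors' deposited table lists no receptor with a false discovery rate under 0.05 for HET against WT at any time; its lowest is 0.0600 for Gfra3 at 48 h.

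Ngfr (ENSMUSG00000000120, chr11:95568818-95587735, minus strand) encodes p75NTR, which binds every neurotrophin, sharpens the ligand choice of the Trks and, with sortilin, binds the uncleaved proneurotrophins. In WT cultures Ngfr measured 42343, 35159 and 28065 at 12 h, 25460, 24861 and 26239 at 24 h, and 14989, 15070 and 17413 at 48 h. In HET cultures Ngfr measured 33713, 35535 and 25354 at 12 h, 22329, 25451 and 21265 at 24 h, and 15634, 20386 and 22201 at 48 h. Every WT culture at 48 h lay below every WT culture at 24 h, and these below every one at 12 h; in HET the 12 and 48 h samples were apart but each overlapped with 24 h. The fall from 12 to 48 h was -1.14 in log2 in WT (SE 0.15, 0.455-fold, limma adjusted p 5.52e-05) and -0.70 in HET (SE 0.15, 0.615-fold, limma adjusted p 0.0152). Without HET replicate 3 at 48 h the HET fall was -0.81 (limma adjusted p 0.00234), and without HET replicate 1 at 48 h it was -0.55 (limma adjusted p 0.0917). The 48 h difference between genotypes was 0.28 (95% interval -0.04 to 0.61, limma adjusted p 0.291), with overlapping samples, and the difference between the 2 time courses was 0.44 (SE 0.22, limma adjusted p 0.563).

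p75NTR is also made by Schwann cells and other glia of the ganglion, whose markers moved over the same hours. The summed FPKM of the 9 Schwann cell markers ran from 538.4 to 688 in WT at 12 h and from 473.5 to 496.9 at 48 h, with 2 markers higher (among them Erbb3) and 2 lower (among them S100b). In HET it ran from 593.9 to 674.9 at 12 h and from 477.7 to 574.8 at 48 h. Of all genes, 30% were higher and 17.1% lower in WT from 12 to 48 h. The 5 satellite glia markers summed to between 539.9 and 679.2 FPKM in WT at 12 h and between 290.3 and 323.7 at 48 h, with Apoe at -2.69 and Fabp7 at -1.36 in log2 and Glul at 0.59, all past the threshold. No marker of either list was at 0, and the part of these cells in the Ngfr values was not tested.

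Ntrk2 (ENSMUSG00000055254, chr13:58806569-59133970, plus strand) encodes TrkB, the receptor of brain-derived neurotrophic factor (BDNF). In WT cultures Ntrk2 measured 2528, 3674 and 3269 at 12 h, 2107, 2109 and 2744 at 24 h, and 3759, 3203 and 2450 at 48 h. In HET cultures Ntrk2 measured 1883, 3446 and 2866 at 12 h, 1854, 2303 and 2230 at 24 h, and 3062, 3093 and 1670 at 48 h. All groups overlapped with one another in the 9 pairs compared, and the lowest of the 18 values was that of HET replicate 3 at 48 h. From 12 to 48 h the log2 change was -0.01 in WT (95% interval -0.53 to 0.50) and -0.08 in HET (-0.59 to 0.44). With the HET replicate 3 at 48 h left out, the HET change was 0.22. HET against WT gave -0.24 at 12 h, -0.12 at 24 h and -0.30 at 48 h (SE 0.24, limma adjusted p 0.781, 1 and 0.496). The 48 h value was -0.0058 without HET replicate 3.

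Ntrk3 (ENSMUSG00000059146, chr7:78175959-78738012, minus strand) encodes TrkC, the receptor of the neurotrophin made by Ntf3, and marks proprioceptive neurons in the ganglion. In WT cultures Ntrk3 measured 3313, 2578 and 4634 at 12 h, 2179, 2726 and 1686 at 24 h, and 1305, 1085 and 1052 at 48 h. In HET cultures Ntrk3 measured 3134, 1582 and 1754 at 12 h, 2345, 2200 and 845 at 24 h, and 1140, 1533 and 1162 at 48 h. It had the widest span of the receptors, the highest of 18 samples being 5.48 times the lowest. The WT samples at 48 h lay below all WT samples at 12 and 24 h, and 2 of 3 HET samples at 12 h already lay below every WT sample of that time. In WT the fall from 12 to 48 h was -1.58 in log2 (SE 0.33, 0.335-fold, limma adjusted p 0.00112). In HET it was -0.70 (SE 0.33, limma adjusted p 0.156), with 12 and 48 h samples apart. The 12 h genotype difference was -0.73 (95% interval -1.43 to -0.03, limma adjusted p 0.585), and that between the time courses was 0.88 (SE 0.47, limma adjusted p 0.570).

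Markers of the large-diameter neurons that carry TrkB or TrkC changed in both directions over the same span. Of the 6 listed, 4 were lower and 2 higher at 48 h than at 12 h in WT, with a median of -0.98, and 2 lower and 2 higher in HET, with a median of -0.42. Over all genes 17.1% were lower and 30% higher in WT, with a median of 0.11. In HET 3.62% of all genes were lower and 10.6% higher, with a median of 0.10.  Pvalb, a calcium-binding protein of proprioceptors, changed by -1.16 in WT (limma adjusted p 0.018), and Etv1, a transcription factor of the same cells, by -2.29 (limma adjusted p 5.2e-05). The summed FPKM of the list ran from 74.28 to 129.6 in WT at 12 h and from 134.9 to 160.4 at 48 h, while the mean of Spp1, an extracellular matrix protein, went from 24.4 to 109 FPKM. No marker of the list was at 0, and its part in the Ntrk3 values was not tested.

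Sort1 (ENSMUSG00000068747, chr3:108284082-108361511, plus strand) encodes sortilin, which joins p75NTR in binding proneurotrophins and sorts Trk receptors and BDNF inside the cell. In WT cultures Sort1 measured 1416, 1390 and 1428 at 12 h, 1381, 1430 and 1586 at 24 h, and 2078, 2111 and 1782 at 48 h. In HET cultures Sort1 measured 1345, 1374 and 1396 at 12 h, 1364, 1403 and 1485 at 24 h, and 1879, 1925 and 1320 at 48 h. At 12 h its samples lay close together (SD 19.5 in WT and 25.6 in HET), and all WT samples at 48 h lay above all earlier ones. HET replicate 3 at 48 h was the lowest of all 18 values, while the other 2 HET samples at 48 h lay above every earlier HET sample. The rise from 12 to 48 h was 0.49 in log2 in WT (SE 0.12, 1.41-fold, limma adjusted p 0.00302). In HET the change was 0.30 (SE 0.12, limma adjusted p 0.0976), and 0.47 (limma adjusted p 0.00171) without HET replicate 3 at 48 h. HET against WT at 48 h gave -0.24 (95% interval -0.49 to 0.01, limma adjusted p 0.251), and -0.06 without HET replicate 3.

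**Figure D2:**
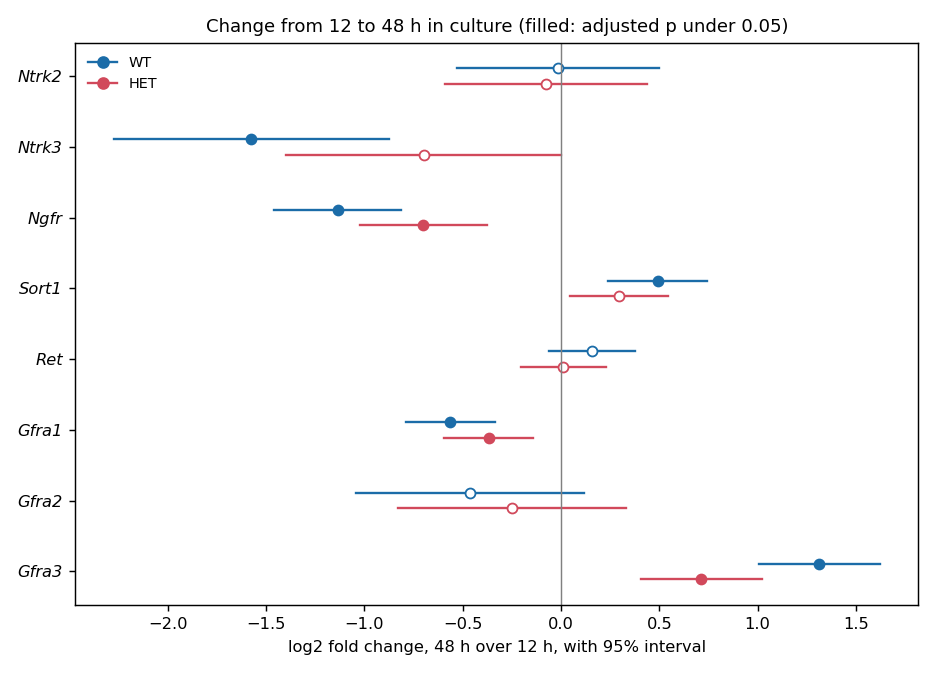
Log2 fold change from 12 to 48 h (horizontal axis) of each receptor gene (vertical axis) in WT (blue) and HET (red) cultures, 3 per group; bars are 95% intervals of the limma fit and filled points have an adjusted p under 0.05. Gfra3 lies at 1.31 in WT and 0.71 in HET and Ngfr at -1.14 and -0.70, each filled in both genotypes, while Ret and Ntrk2 lie near 0.

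Ret (ENSMUSG00000030110, chr6:118151745-118197718, minus strand) encodes the kinase that all GDNF-family ligands signal through. In WT cultures Ret measured 31944, 35671 and 43642 at 12 h, 35765, 35970 and 37793 at 24 h, and 40261, 38510 and 44369 at 48 h. In HET cultures Ret measured 38337, 42776 and 42928 at 12 h, 38290, 34391 and 34948 at 24 h, and 44030, 43078 and 38061 at 48 h. It had the narrowest span of the 8, the highest sample being 1.39 times the lowest, and WT and HET samples overlapped at each time. The change from 12 to 48 h was 0.16 in WT (95% interval -0.06 to 0.37, limma adjusted p 0.227) and 0.01 in HET (-0.21 to 0.23, limma adjusted p 0.948). The WT change passed with quantile normalization (0.28, limma adjusted p 0.0296) and without WT replicate 5 at 12 h (0.28, 0.0275). It did not pass in 6 other alternatives and 17 other fits that leave out 1 sample. From 24 to 48 h in WT, Ret also passed with quantile normalization (0.30, limma adjusted p 0.0367), against 0.17 (0.237) in the main fit. HET against WT gave 0.17, -0.03 and 0.02 at the successive times (SE 0.10, limma adjusted p 0.636, 1 and 0.925).

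Gfra1 (ENSMUSG00000025089, chr19:58235604-58455909, minus strand) encodes the co-receptor that prefers GDNF. In WT cultures Gfra1 measured 8223, 8048 and 7477 at 12 h, 6381, 6238 and 6562 at 24 h, and 5877, 4737 and 5518 at 48 h. In HET cultures Gfra1 measured 8382, 9116 and 7589 at 12 h, 5221, 6902 and 5703 at 24 h, and 6601, 5878 and 6959 at 48 h. The 3 WT times did not overlap, each lower than the one before, whereas in HET the 24 and 48 h samples overlapped and both lay below 12 h. From 12 to 48 h Gfra1 fell by 0.56 on the log2 scale in WT (SE 0.11, 0.677-fold, limma adjusted p 5.47e-04) and by 0.37 in HET (SE 0.11, 0.775-fold, limma adjusted p 0.0334). The HET call was lost without HET replicate 1 or 2 at 12 h or HET replicate 1 or 2 at 48 h, with limma adjusted p from 0.0778 to 0.154. From 12 to 24 h it fell by 0.50 in HET (limma adjusted p 0.00519). At 48 h every HET sample was above every WT sample, 5878 against 5877 for the nearest pair, with a difference of 0.27 (95% interval 0.05 to 0.50, limma adjusted p 0.154).

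Gfra2 (ENSMUSG00000022103, chr14:70890120-70979838, plus strand) encodes the co-receptor that prefers neurturin. In WT cultures Gfra2 measured 1500, 1861 and 3322 at 12 h, 1163, 1517 and 1432 at 24 h, and 1821, 1222 and 1586 at 48 h. In HET cultures Gfra2 measured 1911, 3169 and 3090 at 12 h, 1054, 1503 and 1329 at 24 h, and 3138, 2061 and 1718 at 48 h. Among HET samples those at 24 h were all lower than those at 12 and 48 h; in WT the 3 times overlapped, and replicate 5 at 12 h was far above the other 2. From 12 to 24 h Gfra2 fell by 1.05 on the log2 scale in HET (SE 0.27, 0.483-fold, limma adjusted p 0.0147), a call lost without HET replicate 2 or 5 at 12 h or HET replicate 1 at 24 h (limma adjusted p 0.0823, 0.0504 and 0.0640). The WT value for that span was -0.63 (limma adjusted p 0.197). HET over WT at 48 h was 0.55 (95% interval -0.03 to 1.13, limma adjusted p 0.249).

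Gfra3 (ENSMUSG00000024366) encodes the co-receptor that prefers artemin, found mainly on nociceptive neurons. In WT cultures Gfra3 measured 3345, 3198 and 3799 at 12 h, 4874, 4792 and 5932 at 24 h, and 7338, 9833 and 8669 at 48 h. In HET cultures Gfra3 measured 3749, 3538 and 4168 at 12 h, 6211, 4883 and 6778 at 24 h, and 6540, 7284 and 5119 at 48 h. The WT times rose without overlap, while in HET both later times lay above 12 h and overlapped with each other. It was the receptor with the largest rise: 1.31 in log2 from 12 to 48 h in WT (SE 0.15, 2.49-fold, limma adjusted p 2.81e-05) and 0.71 in HET (SE 0.15, 1.64-fold, limma adjusted p 0.0129). Already at 24 h it had passed the threshold, at 0.59 in WT (limma adjusted p 0.0380) and 0.63 in HET (limma adjusted p 0.00780). The WT call at 24 h was lost without any 1 of the 6 WT cultures of 12 and 24 h. Over those hours 1 of 8 receptors was called in WT, where 3.62% of all genes were (2.96% higher and 0.657% lower). In HET 3 of 8 were called (Gfra3 higher, Gfra1 and Gfra2 lower), where 18.9% of all genes were (13.1% higher and 5.76% lower).

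From 24 to 48 h Gfra3 rose by 0.72 in WT (SE 0.15, limma adjusted p 0.00403) and measured 0.08 in HET (SE 0.15, limma adjusted p 0.812); the difference between these was not tested. Over that day 4 of 8 receptors were called in WT (Gfra3 and Sort1 higher, Ntrk3 and Ngfr lower), where 27.7% of all genes were (17.4% higher and 10.3% lower). The WT count was 2 without WT replicate 1 at 24 h, WT replicate 2 at 24 h or WT replicate 2 at 48 h. The Ntrk3 call (limma adjusted p 0.0485) was lost in 9 of the 18 fits that leave out 1 sample. It was also lost with covariates for the absent directions (limma adjusted p 0.0830). In HET limma called 0 of 8, where 2.49% of all genes passed (1.42% higher and 1.08% lower), and 1 receptor (Gfra2) had an unadjusted p under 0.05. Without HET replicate 3 at 48 h the HET count was 2, Sort1 and Gfra2. At 48 h each HET culture lay below each WT culture, the nearest being 7284 and 7338. That difference was -0.45 (95% interval -0.76 to -0.14, 0.73-fold, limma adjusted p 0.0936), and -0.31 (limma adjusted p 0.434) without HET replicate 3 at 48 h. With the replicate numbers as a block, the 48 h difference had a limma adjusted p of 0.0285. The test of the difference between the time courses from 12 to 48 h gave -0.60 (SE 0.21, unadjusted p 0.00989, limma adjusted p 0.548), and 0% of all genes passed it, with 1534 at an unadjusted p under 0.05. Without HET replicate 3 at 48 h that value was -0.46 (limma adjusted p 0.772).

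**Figure D3:**
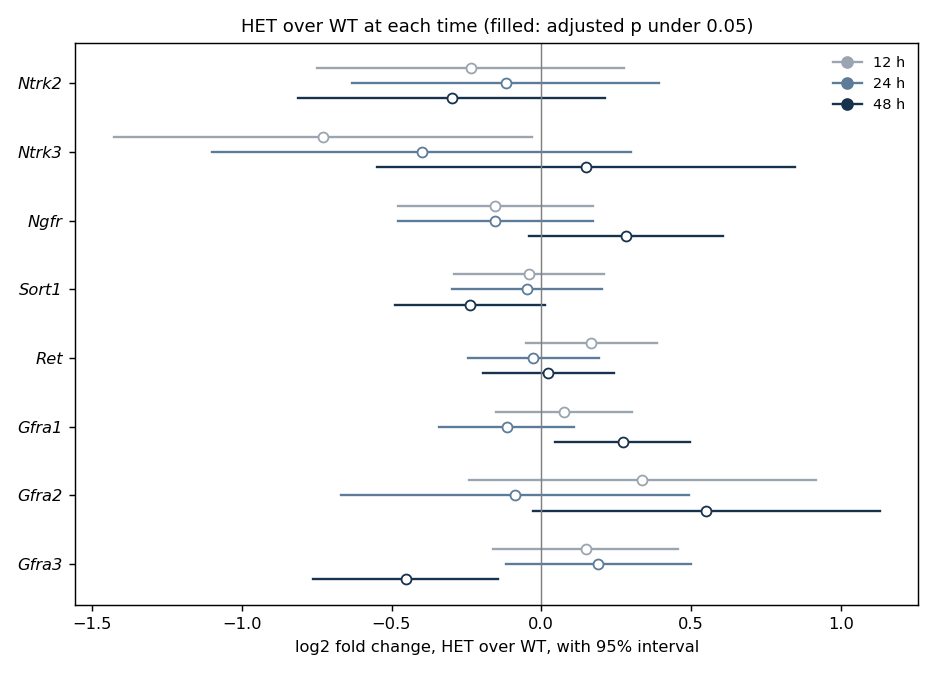
Log2 fold change of HET over WT (horizontal axis) for each receptor gene (vertical axis) at 12, 24 and 48 h (light to dark), 3 cultures per group; bars are 95% intervals of the limma fit and filled points have an adjusted p under 0.05. No point is filled; the interval at 48 h lies below 0 for Gfra3 and above 0 for Gfra1.

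Among Gfra1, Gfra2 and Gfra3 the make-up of the transcripts moved from near-equal parts of Gfra1 and Gfra3 towards Gfra3. A further GFR alpha gene was measured and is not part of these shares. As a share of the summed FPKM of Gfra1, Gfra2 and Gfra3, Gfra3 made up 42.5 ± 0.922% in WT at 12 h, 59.5 ± 2.31% at 24 h and 72.8 ± 5.47% at 48 h (SD, n = 3). In HET the shares were 42.7 ± 3.89%, 64.3 ± 7.01% and 60.4 ± 5.23% (SD, n = 3). The 48 h samples did not overlap, with 67.35, 78.29 and 72.61% in WT and 58.58, 66.34 and 56.38% in HET. Gfra1 took 42.0% in WT at 12 h and 19.6% at 48 h, and 39.9% and 27.0% in HET. The summed FPKM was 98.1 ± 8.31 in WT at 12 h and 143 ± 10.2 at 48 h, and 108 ± 5.55 and 126 ± 14.0 in HET (SD, n = 3). Among the neurotrophin receptors Ngfr made up between 81.01 and 92.04% of the summed FPKM of Ngfr, Ntrk2 and Ntrk3 in every sample. That sum went from 286 ± 44.5 to 130 ± 7.54 FPKM in WT (SD, n = 3). The Ntrk2 share went from 3.14 ± 0.903% at 12 h to 6.74 ± 1.68% at 48 h in WT, with no overlap of samples. In HET it went from 3.12 ± 1.05% to 4.83 ± 1.97%, with overlap (SD, n = 3). The Ntrk3 share in WT went from 10.3 ± 4.37% to 7.17 ± 1.09%, with overlap (SD, n = 3).

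**Figure D4:**
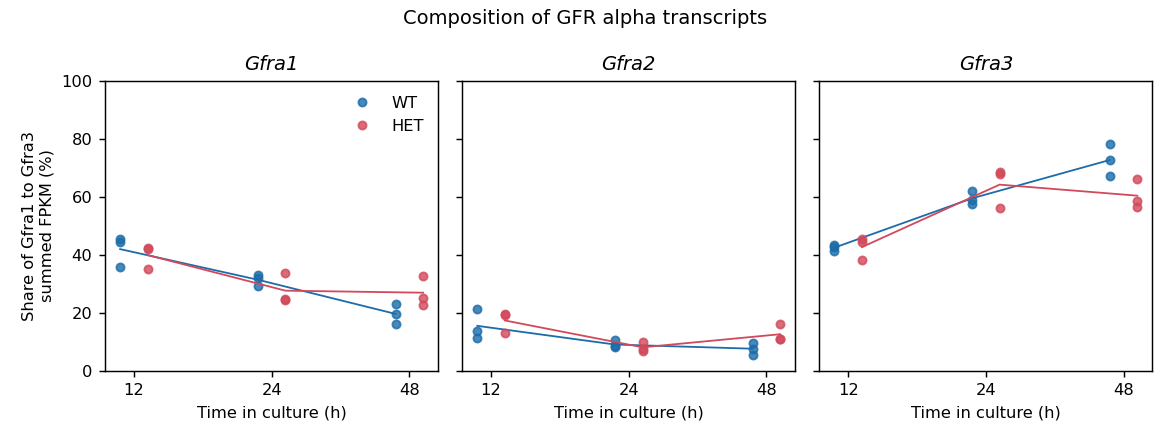
Share of the summed FPKM of Gfra1, Gfra2 and Gfra3 taken by each gene (vertical axis, percent) at 12, 24 and 48 h (horizontal axis, the times spaced evenly); points are cultures, lines join group means, WT in blue and HET in red, 3 per group. Gfra3 goes from 42.5 to 72.8% in WT and from 42.7 to 60.4% in HET.

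Subtype markers of nociceptive neurons, in which Ret and its co-receptors are common, were lower at 48 h in part, more of them in WT than in HET by count; the difference between genotypes was not tested. Of 5 non-peptidergic markers 4 were lower in WT and 1 in HET, and Mrgprd, a receptor of that class, changed by -4.74 in WT (limma adjusted p 7.4e-05) and by -2.49 in HET (limma adjusted p 0.027). Their summed FPKM ran from 169.3 to 286.1 in WT at 12 h and from 150.3 to 170.8 at 48 h. In HET at 48 h it ran from 181 to 284.3, above every WT sample of 48 h but not of 12 h. Of 4 peptidergic markers 2 were lower (Calca, Tac1) and 1 higher (Adcyap1) in WT, and in HET 2 were lower and 0 higher. Over all genes 17.1% were lower and 30% higher in WT, and 3.62% and 10.6% in HET. Of the general sensory neuron markers 3 of 11 were higher and 5 lower, with Isl1 at 1.83 and Snap25 at -0.82. No marker of these lists was at 0, and none passed between genotypes in the fit without replicate numbers. The part of these cells in the GFR alpha values was not tested.

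Markers of other cell types were measured as well. From 12 to 48 h in WT, 4 of 6 fibroblast markers were higher and 0 lower, 2 of 5 macrophage markers were higher, and 3 of 5 endothelial markers and 3 of 3 measured blood markers were lower, where 30% of all genes were higher and 17.1% lower; the macrophage share is near that background. Fibroblast sums ran from 39.92 to 88.15 FPKM at 12 h and from 107 to 154.3 at 48 h. Macrophage sums at 48 h ran from 45.4 to 87.15 FPKM in WT and from 26.3 to 42.13 in HET. The part of these cells in the receptor values was not tested.

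Ligands of these receptors were measured too, and their counts stand against the same 30% of all genes higher and 17.1% lower in WT. Of the 8 listed, 7 were in the table, and from 12 to 48 h in WT 2 rose and 0 fell. Bdnf, the TrkB ligand, rose by 0.88 in log2 (SE 0.15, limma adjusted p 2.34e-04), from a mean of 13.0 to 23.9 FPKM, and by 0.52 in HET (limma adjusted p 0.0312). Ntf5, another TrkB ligand, had 1.29 in WT (limma adjusted p 0.0393) at a mean of at most 0.206 FPKM in any group, a level at which the offset of 1 weighs on the fold. Gdnf measured 4.76 FPKM in WT at 12 h and 6.19 at 48 h, and gave -0.69 for HET against WT at 48 h (limma adjusted p 0.129).

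Among 10 measured further receptors and co-receptors, 4 rose and 2 fell from 12 to 48 h in WT, shares near those of all genes (30% and 17.1%). Sorl1, a sorting receptor related to sortilin, fell by 1.36 in WT and by 0.72 in HET (limma adjusted p 2.23e-05 and 0.0124), whereas Sort1 rose in WT. Ncam1, an adhesion molecule that also binds GDNF with Gfra1, rose by 1.08 in WT, and Sdc3, a syndecan that binds GDNF-family ligands, by 1.12 (limma adjusted p 2.21e-04 and 5.73e-04). Of 11 measured p75NTR partners 2 rose and 1 fell, led by Nradd, a p75NTR-like death domain protein, at 1.87 in WT (limma adjusted p 1.16e-04) and 0.95 in HET (limma adjusted p 0.0385).

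Genes that act downstream of the receptors were counted against the same background, 30% of all genes higher and 17.1% lower in WT and 10.6% and 3.62% in HET. Of 21 adaptors 4 rose and 8 fell, with Gab1, a docking protein, at -1.06, Frs2, which couples Trks to Ras, at -0.79, and Dok5, an adaptor of Ret and Trk receptors, at 1.21 (limma adjusted p 1.33e-04, 0.00579 and 6.21e-04). Of 17 genes that neurotrophin signalling is known to induce, 2 rose and 11 fell, with a median of -0.58 beside 0.11 for all genes; Fos had -3.06, Etv1 (also among the large-diameter markers) -2.29 and Egr1 -2.22 (limma adjusted p 2.94e-05, 5.17e-05 and 1.27e-04). In HET 1 target gene rose and 3 fell, with Fos at -1.78 and Etv1 at -1.18, and 0 of 21 adaptors passed. Of 22 genes of endosome transport 4 rose and 5 fell in WT, and 0 rose and 1 fell in HET, in sum no more than the 47.1% and 14.2% of all genes called; Dpysl2, also called CRMP2, fell by 0.69 in WT and by 0.30 in HET. For HET against WT, 0 genes of these lists passed at any time or averaged over times in the fit without replicate numbers. At 48 h the lowest limma adjusted p among the endosome genes was 0.0502, for Dpysl2 at 0.39.

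The genes whose values ran most closely with each receptor over the 18 samples were taken from 12633 genes with a mean of at least 1 FPKM. The measure was Pearson's r of log2(normalized count + 1), given as a description with no test; the points share their time and scaling, and most of the spread is the time course. For Ngfr they were Nat8l (r 0.987) and Vwa7 (0.983), and for Gfra3 Tmeff1 (0.985) and Nts (0.984). Sort1 ran with Gnptab (0.977) and Sh3kbp1 (0.976), Gfra1 with Ube2n (0.976) and Rit2 (0.973), and Ntrk3 with Eif4g3 (0.963) and Slc24a2 (0.946). The likeness was lower for Gfra2 (Rasgrp1 0.943, Uaca 0.941), Ret (Tmod2 0.902, Syt9 0.896) and Ntrk2 (Ndrg2 0.891, Gm2115 0.870).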

How the data were processed

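RNA of 18 DRG cultures was analysed from 1 deposited table, with samples grouped by the titles, which also give the replicate numbers. Per the submitters' processing notes, the tools CASAVA 1.8.2 and edgeR and the mm10 build are named, with no role given; the aligner, the counter, the annotation and the gene filter are not given in the sources used here. Per the file headers, the authors deposited normalized counts, a signal whose values are not whole numbers, beside a second signal per sample that is called the plain adjusted columns here. FPKM values were computed by the authors, per the file headers, and were used to compare genes of different length. The authors' log2 fold changes, p-values and false discovery rates were read from the deposited table for comparison only. Another 24 per-sample columns were not used. The deposited values do not vary in 2 directions among samples, a step the headers do not describe. Sequencing depth is unknown, so no counting interval or floor was computed, and precision rests on 3 cultures per group.

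With R 4.3.3 and limma 3.58.1, log2(normalized count + 1) of all 17198 genes was fitted with 1 coefficient per group (lmFit, contrasts.fit, eBayes with a trend, 12 residual and 5 prior degrees of freedom). The design had foreseen a count test if the table held counts; it did not. Benjamini-Hochberg adjustment ran within each of 11 comparisons. The script was tested on simulated data. Log2(value + 1) understates changes of low genes. Coordinates and transcripts are from GENCODE M21, where 8 of 8 receptor IDs matched; figures were drawn with matplotlib.

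The receptors and the lists of pathway and marker genes were chosen with earlier results of these data known. All 8 receptors and Dynlrb1 are named in every comparison they bear on; from each pathway list, at most the 3 genes past the threshold with the largest change, or the gene with the lowest p; for each receptor the 2 genes with the highest r; and from each marker list at most 3. Results of some genes the rule names are not reported here. Alternatives were a replicate block, the plain adjusted columns, another pseudocount, other filters, quantile normalization, covariates for the absent directions, and leaving out each sample.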

Additional observations from a re-analysis of the deposited data

Results flagged for a closer look

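For Gfra3, the GFR alpha co-receptor of artemin, the values of HET lay on opposite sides of the WT mean at 12 and 48 h. At 12 h every HET culture lay above it, with a log2 difference of 0.15 (95% interval -0.16 to 0.46, limma adjusted p 0.768) and overlapping samples, at 24 h the difference was 0.19 (limma adjusted p 1), and at 48 h every HET culture lay below it, with -0.45. The change between these differences, -0.60 in log2, had a limma adjusted p of 0.548 and an unadjusted p of 0.00989, so it did not pass over all genes. HET replicate 3 at 48 h, which stands apart on the time axis (0.273), holds the lowest of the 3 HET values, 5119; without it the change was -0.46 (limma adjusted p 0.772).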

How the results depend on the processing

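The count of receptor genes past the threshold stayed at 0 of 8 for HET against WT at 12 h, at 24 h, averaged over times and for the difference between the time courses, under every alternative run. The labels do not say what the replicate numbers stand for, and they were not treated as pairs, since not every same-numbered pair correlated over 0.1. Same-numbered WT and HET cultures of 1 time had deviations that correlated at a mean r of 0.17 (9 pairs, -0.207 to 0.461, 7 of them over 0.1 and among these the 3 at 48 h), the 18 other pairs at -0.0856 (3 over 0.1), and 6 of 9 HET samples correlated best with their own number. With the replicate block the count went to 1 for HET against WT at 48 h (Gfra3, -0.45, limma adjusted p 0.0285), to 2 for 24 against 12 h in WT and to 3 for 48 against 24 h in HET. The block also added calls for Ntrk2 (0.72, limma adjusted p 0.00509) and Gfra1 (-0.32, 0.0411) from 24 to 48 h in WT, for Ngfr from 12 to 24 h in both genotypes (0.0413 in WT, 0.0163 in HET) and for Sort1 from 12 to 48 h in HET (0.45, 0.00202). Some of these calls were not particular to the block. Ngfr in HET also passed with the plain adjusted columns (0.0356), with the covariates (0.0488) and in 6 of 18 fits that leave out 1 sample. Gfra1 also passed with the plain adjusted columns (0.0370). Replicate 5 is absent at 48 h and replicate 3 at 12 and 24 h, so this block also shifts the estimated changes to 48 h. Without it the Ntrk2 change from 24 to 48 h in WT was 0.42. With the block within each time point, chosen after seeing the data, the count at 48 h was 2 (Gfra3 and Gfra2, limma adjusted p 0.0146 and 0.0361). Over all genes the block raised the calls at 48 h from 0 to 1790, averaged over times from 3 to 205, for 24 against 12 h in WT from 622 to 1218, for 48 against 12 h in HET from 2442 to 5099 and for 48 against 24 h in HET from 429 to 2084; quantile normalization gave 276, 4, 451, 1596 and 504, and covariates for the absent directions 1, 3, 1132, 2230 and 841. At 24 h the block and those covariates left 0 genes, Dynlrb1 included (limma adjusted p 0.0808 and 0.152).

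For 24 against 12 h in WT, where Gfra3 alone passed, the receptor count was 0 with quantile normalization and with covariates for the absent directions (limma adjusted p 0.0517 and 0.0506). Leaving out 1 sample gave receptor counts from 0 to 1 there (0 without any of the 6 WT samples of 12 and 24 h), from 2 to 4 for 48 against 24 h in WT, from 0 to 4 for 48 against 12 h in HET and from 0 to 2 for 48 against 24 h in HET. The cause of these moves was not tested, and each of the fits that leave out a sample also rests on fewer samples.

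Values that changed sign under these alternatives ran from -0.10 to 0.28. For HET against WT at 24 h with covariates for the absent directions, the log2 difference was 0.0252 for Ntrk2, 0.0256 for Sort1, 0.0182 for Ret and 0.0527 for Gfra2, and with quantile normalization 0.0154 for Ret. At 48 h Ret had -0.10 with quantile normalization and -0.011 with those covariates. Averaged over times, Ngfr had 0.0063 with the plain adjusted columns and Ret -0.0040 with quantile normalization. For 24 against 12 h Sort1 had -0.0544 in WT with the covariates, and in HET -0.0106 with the plain adjusted columns and -0.0554 with quantile normalization. For 48 against 12 h Ntrk2 had 0.28 in WT and 0.22 in HET with the replicate block and 0.0079 in WT with the covariates, and Ret in HET had -0.0859 with the plain adjusted columns and -2e-04 with the covariates.

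Leaving out 1 sample changed the sign of these log2 values, given by their lowest and highest. HET against WT ran at 12 h from -0.4253 to 0.0106 for Ntrk2, and at 24 h from -0.183 to 0.0076 for Ntrk2, -0.66 to 0.0756 for Ntrk3, -0.0885 to 0.0114 for Sort1, -0.0742 to 0.0033 for Ret and -0.2024 to 0.0532 for Gfra2. At 48 h Ret ran from -0.0216 to 0.088, and averaged over times Ngfr from -0.059 to 0.0419 and Gfra3 from -0.0754 to 0.0094. For 24 against 12 h Sort1 ran from -0.0062 to 0.0936 and Ret from -0.1124 to 0.1127 in WT, and Ntrk3 from -0.5922 to 0.1434 in HET. For 48 against 12 h Ntrk2 ran from -0.1655 to 0.1536 in WT and -0.3239 to 0.2161 in HET, and Ret from -0.0414 to 0.0769 in HET. For 48 against 24 h in HET Gfra3 ran from -0.0546 to 0.2258. The difference between time courses ran from -0.3101 to 0.23 for Ntrk2 and -0.1166 to 0.4565 for Gfra2.

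The plain adjusted columns moved the median of all genes for 48 against 12 h from 0.11 to 0.01 in WT and from 0.10 to 0.01 in HET. With the block within each time point, 17 genes passed at 12 h, 2120 at 48 h and 553 averaged over times. DESeq2 was not run, since the table holds no counts.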
